A study of Mus with 12 samples.

Results

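Ion channels, pumps and channel regulators of calcium and sodium transport were followed in the pregnant mouse uterus by RNA-seq. A row of an expression table was taken as a member when its gene name belonged to a voltage-gated calcium channel (Cacna1, Cacna2d, Cacnb, Cacng), a voltage-gated sodium channel (Scn), a TRPC, TRPV or TRPM channel, a ryanodine or inositol trisphosphate (IP3) receptor, an anoctamin, Orai or Stim, or a calcium pump (Atp2a, Atp2b), and when the row held an Ensembl transcript. This gave 92 of 87235 rows in the implantation table and 89 of 40787 rows in the labor table, with 89 of 91 distinct names in both. The names were sorted into 15 families. Trpc4ap, the TRPC4-associated protein, and Trpc5os, a gene on the opposite strand of Trpc5, matched by name and are no channels. Trpc4ap is counted among the tested channel rows and pairs below, and met the criterion used there at neither stage.

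Whole uteri came from ICR mice, an outbred stock, aged 8 weeks, with 3 mice and 3 libraries on each of 4 days of pregnancy. E0.5 and E4.5 stand for the implantation stage, just after mating and around embryo attachment, and E15.5 and E18.5 for the labor stage, late gestation and the day near term. The labels name no engineered allele and no treatment. The days were compared only within a stage, E0.5 against E4.5 and E18.5 against E15.5, because the 2 tables were assembled and normalized separately.

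In uterine smooth muscle, voltage-gated calcium channels admit the calcium that starts contraction, store channels (IP3 and ryanodine receptors) add to it, and SERCA and plasma membrane pumps remove it. Calcium-activated chloride channels such as anoctamin 1 and nonselective cation channels of the TRP families shift the membrane potential that gates these channels. Uterine epithelium uses another set, in which TRPV6 admits calcium, calbindins carry it and plasma membrane pumps export it.

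The implantation libraries held 58020989 to 70906881 counts. One of them stood apart. In E4.5 replicate 3 the 8 ovary markers summed to 710 FPKM (fragments per kilobase of transcript and per number of mapped fragments), against 6.45 and 7.40 in the other E4.5 libraries and 5.78 to 6.85 at E0.5. Of the 8, 3 were past the criterion used below, lower at E0.5 (5.82% of all tested rows were), and 1 was without this library. Its 5 oviduct markers summed to 90.9 FPKM, against 5.10 to 20.4 in the other 5 libraries, and its 8 smooth muscle markers to 208, against 804 to 1221. No marker of these 3 lists was at 0 in all libraries. The Spearman correlation of this library with the other E4.5 libraries was 0.711 and 0.725 over 15947 rows, against 0.885 to 0.91 between other libraries of the same day. The part of this tissue signal in each difference was not tested, and values without E4.5 replicate 3 are given for many, but not all, of the genes below. The 6 epithelium markers summed to 223 to 266 FPKM at E0.5 and 76.9 to 163 at E4.5. Of the 6, 3 were past the criterion, higher at E0.5 (6.37% of all tested rows were), and 2 were without E4.5 replicate 3. In bulk tissue, fewer cells of a type and less RNA per cell cannot be told apart.

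Rows averaging 0.1 FPKM or more over the 6 libraries of a table were tested, which held for 65 of the 92 channel rows at implantation. Their means spread widely, with 16 rows between 0.1 and 0.5 FPKM, 15 between 0.5 and 2, 29 between 2 and 10, and 5 above 10. The other 27 rows, among them Cacna1b, Cacna1s, Trpm8, Scn10a and both Scn4a rows, had means of at most 0.0911 FPKM, and 5 of these were at 0 throughout. At labor, 60 of 89 rows were tested, and the other 29 had means of at most 0.0823 FPKM. A filter of this kind keeps a row that is high on a single day, so the counts below describe tested rows and not all members.

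By the mean over the 6 libraries of a table, the most abundant member of each of the 15 families was the same gene in both tables. On single days the order could differ, as for Itpr3 and Itpr2 at E4.5 or Ano1, Ano10 and Ano6 at E0.5. Among them were Cacna1c (CaV1.2, the L-type pore), Cacna2d1, Cacnb3 and Cacng7 among calcium channel subunits, Scn7a among sodium channel genes, and Trpv6 and Trpm7 among TRP channels. Ryr3 and Itpr3 led the store channels, Ano1 the anoctamins, Orai3 the store-operated entry genes, and Atp2a2 (SERCA2) and Atp2b4 (PMCA4) the pumps. Summed over their members, the SERCA pumps measured 39.0 ± 3.17 FPKM (SD, n = 3) at E0.5 and 29.9 ± 0.550 at E4.5 in the implantation table, and 39.7 ± 1.61 at E18.5 and 31.3 ± 6.39 at E15.5 in the labor table. These sums were not tested.

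**Figure D1:**
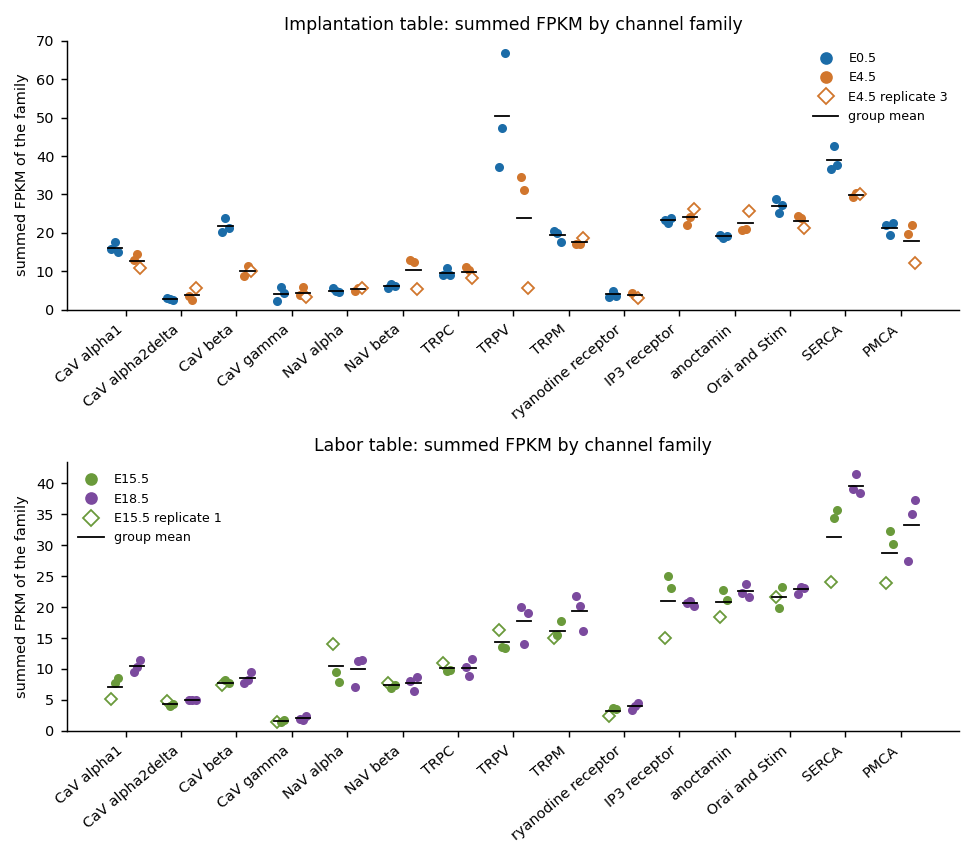
Summed FPKM of each channel family (y axis, linear) in every library of the implantation table (top) and the labor table (bottom). Points are libraries, lines are group means, and open diamonds mark E4.5 replicate 3 and E15.5 replicate 1. The CaV beta sum was 20.3 to 23.9 FPKM at E0.5 and 8.67 to 11.5 at E4.5, and the TRPV sum of E4.5 replicate 3 lay at 5.71.

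The first comparison asked which of these genes differed between E0.5 and E4.5. The study's criterion asks for a log2 fold change of 1 or more in either direction and for p below 0.05 before adjustment, here from edgeR's quasi-likelihood test. It was met by 16 of 65 channel rows (24.6%), against 12.2% of all 59732 rows tested. Of these, 6 were higher at E0.5 (9.23%, background 6.37%) and 10 were lower (15.4%, background 5.82%). After Benjamini-Hochberg adjustment over all rows, edgeR's quasi-likelihood test left 2 below 0.05, Cacnb3 and Trpc6 (3.08%, background 1.22%). The median log2 fold change of the channel rows was 0.13, beside -0.0072 for all rows, and 55.4% of channel rows had a positive value against 49.6% of all rows. The E0.5 libraries lay above all E4.5 libraries for 12 rows (background 12.8%) and below them for 7 rows (10.8%, background 12.5%). Among the 25785 tested rows with an Ensembl transcript, as all channel rows have, the criterion was met by 12% (5.37% higher, 6.6% lower), 1.87% passed the adjustment, 12% lay wholly above and 17% wholly below, and the median was -0.13. Of the 10 lower channel rows 5 averaged under 0.5 FPKM, and of the 6 higher 0 did.

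Without E4.5 replicate 3, the criterion was met by 17 rows, against 14.1% of all rows and 13.7% of those with an Ensembl transcript, and 11 of these were among the 16. In that fit 12 rows had an adjusted p below 0.05 by edgeR's quasi-likelihood test, beside 6.08% of all rows and 8.13% of those with an Ensembl transcript. Atp2a3, Cacna1g, Ano9, Ryr1 and Ryr2 no longer met the criterion, and 6 others met it, among them Itpr2, Scn2a, Cacna2d3, Ano4 and Ano5. Only Cacna1d, Cacnb2, Cacnb3 and Trpc6 met it whichever of the 6 libraries was left out.

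**Figure D2:**
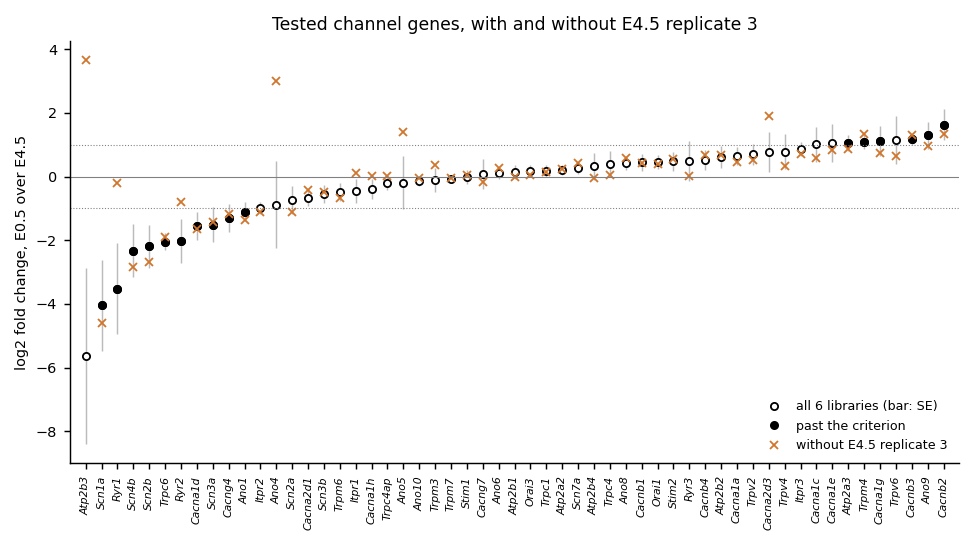
Log2 fold change of E0.5 over E4.5 (y axis) for 55 tested genes named in the text, ordered along the x axis. Circles with SE bars come from all 6 libraries, filled where the criterion was met, and crosses from the fit without E4.5 replicate 3. The crosses leave the circles at Atp2b3, Ryr1, Ryr2, Ano4 and Ano5, among others.

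Of the 4 genes for beta subunits of voltage-gated calcium channels, which bring the pore to the membrane and set its gating, 2 were higher at E0.5. Positions given here are those of the implantation table and fall on the same genes in GRCm38. Cacnb3 (chr15:98630840-98644529) measured 10.95, 10.65 and 11.6 FPKM in the 3 E0.5 libraries and 4.59, 4.32 and 5.94 at E4.5. All E0.5 values lay above all E4.5 values, and E4.5 replicate 3 was not apart from its group. Its log2 fold change of 1.17 ± 0.17 (SE) had an adjusted p of 0.0367 by edgeR's quasi-likelihood test. It ranged from 1.07 to 1.29 over the fits that left out 1 library, of which 1 kept an adjusted p below 0.05 by edgeR.

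Cacnb2 (chr2:14603088-14987908) measured 6.603, 8.37 and 5.75 FPKM at E0.5 and 1.39, 4.18 and 1.26 at E4.5, again without overlap. The difference was 1.62 ± 0.48 on the log2 scale, and edgeR's adjusted p was 0.160. Over the fits that left out 1 library it ran from 1.32, without E4.5 replicate 3, to 2.37. The remaining beta genes did not meet the criterion, with 3.41 ± 1.08 FPKM at E0.5 and 2.52 ± 0.218 at E4.5 for Cacnb1 and 0.475 ± 0.0914 and 0.335 ± 0.0967 for Cacnb4 (SD, n = 3). Summed, the beta subunits went from 21.9 ± 1.85 FPKM at E0.5 to 10.1 ± 1.41 at E4.5.

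Among the pores, the L-type gene Cacna1c measured 8.58, 8.25 and 6.63 FPKM at E0.5 and 4.99, 5.42 and 1.18 at E4.5. The groups did not overlap, but the criterion was not met (log2 fold change 1.01 ± 0.54, edgeR adjusted p = 0.383), and without E4.5 replicate 3, its lowest library, the value was 0.57. Cacna1d (CaV1.3, chr14:30039939-30491455), an L-type pore that opens at less depolarised potentials, went the other way. It measured 0.446, 1.09 and 0.801 FPKM at E0.5 and 1.45, 3.51 and 2.04 at E4.5, without overlap, and gave -1.55 ± 0.43 on the log2 scale (edgeR adjusted p = 0.139). The T-type pore Cacna1g, at 2.80, 2.78 and 2.92 FPKM against 1.89, 1.46 and 0.492, met the criterion at 1.13 ± 0.47 (edgeR adjusted p = 0.291). The call was lost without E4.5 replicate 3 (0.73), E4.5 replicate 2 (1.20) or any 1 of the E0.5 libraries (1.11 to 1.16).

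Cacna1h, another T-type gene, measured 2.68, 3.53 and 2.99 FPKM at E0.5 and 3.12, 2.87 and 6.24 at E4.5, so that only E4.5 replicate 3 stood out. The value was -0.39 ± 0.31 with all libraries and 0.02 without that one. The third T-type gene, Cacna1i, was below the filter, with 0, 10 and 16 counts at E0.5 and 64, 21 and 40 at E4.5. Cacna1a and Cacna1e, the P/Q-type and R-type pores, measured 1.13 ± 0.275 and 0.721 ± 0.163 FPKM and 0.506 ± 0.340 and 0.245 ± 0.0701 FPKM (SD, n = 3), and did not meet the criterion. Cacna2d1, which codes an alpha2delta subunit, gave -0.67 ± 0.27, and -0.43 without E4.5 replicate 3, and did not meet it either. Cacng4, named after its values were seen, measured 0.122, 0.270 and 0.251 FPKM at E0.5 and 0.577, 0.387 and 0.630 at E4.5 (log2 fold change -1.29 ± 0.44, edgeR adjusted p = 0.213), and its call was lost without E0.5 replicate 1 (-0.9999) or E4.5 replicate 1 (-1.19). Cacng7, the leading gamma gene, ranged from 1.94 to 5.52 FPKM at E0.5 and from 2.30 to 5.45 at E4.5.

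Sodium channel genes that met the criterion were all lower at E0.5. Scn2b and Scn4b, which code beta subunits and lie 8324 bases apart on the plus strand of chromosome 9 (chr9:45117782-45130070 and chr9:45138395-45154152), shared a pattern over the libraries. Scn2b measured 1.05, 0.888 and 0.998 FPKM at E0.5 and 6.03, 6.44 and 0.874 at E4.5. Scn4b measured 0.488, 0.485 and 0.179 at E0.5 and 2.83, 2.61 and 0.300 at E4.5. Both were high in E4.5 replicates 1 and 2, while E4.5 replicate 3 lay within the E0.5 range for Scn4b and just below it for Scn2b.

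The log2 fold change was -2.19 ± 0.69 for Scn2b (edgeR adjusted p = 0.179) and -2.33 ± 0.84 for Scn4b (edgeR adjusted p = 0.233). Without E4.5 replicate 3 these became -2.69 and -2.84, with edgeR adjusted p-values of 0.00115 and 0.0136. The call of Scn2b was lost without E0.5 replicate 2 (-2.13), and that of Scn4b when any library other than E4.5 replicate 3 was left out (-1.88 to -2.54). Both genes were named after their values were seen, since their groups overlap.

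The pore gene Scn1a, also named after its values were seen, had 4, 4 and 38 counts at E0.5 and 323, 410 and 12 at E4.5, with E4.5 replicate 3 again beside the E0.5 libraries. On the log2 scale the difference was -4.04 ± 1.42 (edgeR adjusted p = 0.223), and -4.59 without that library (edgeR adjusted p = 0.0326). The call was lost without E0.5 replicate 1 (-3.57), E0.5 replicate 2 (-3.61), E4.5 replicate 1 (-3.77) or E4.5 replicate 2 (-3.51). Scn3a, named in the same way, at means of 0.128 ± 0.0818 and 0.365 ± 0.132 FPKM, gave -1.51 ± 0.55 (edgeR adjusted p = 0.239), and lost the call without E0.5 replicate 2 (-1.43), E0.5 replicate 3 (-1.16) or E4.5 replicate 1 (-1.29).

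Scn7a, a sodium sensor related to the voltage-gated pores, measured 4.13, 3.54 and 3.41 FPKM at E0.5 and 2.40, 3.04 and 3.82 at E4.5. The groups overlapped, and the criterion was not met.

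**Figure D3:**
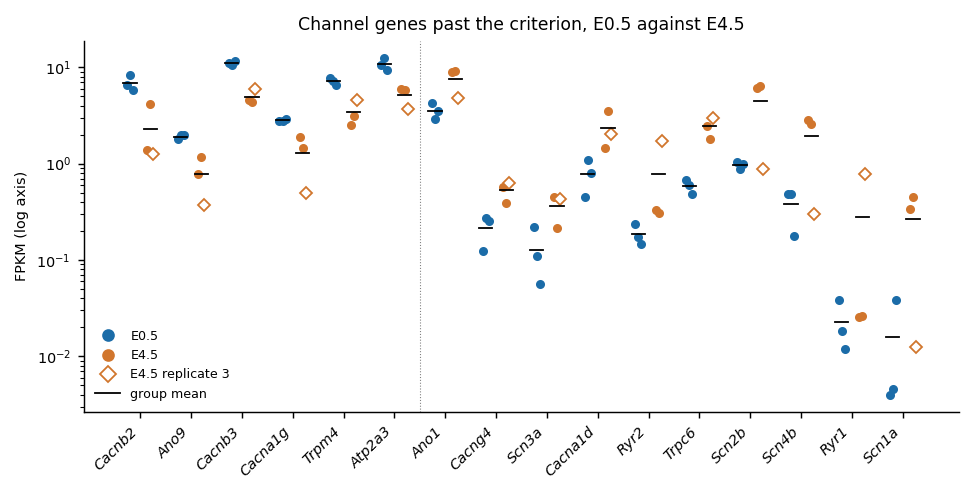
FPKM (log axis) in every implantation library for the 16 channel genes that met the criterion, the 6 higher at E0.5 left of the dotted line. Lines are group means, and the open diamond is E4.5 replicate 3, which lies beside the E0.5 libraries for Scn2b, Scn4b and Scn1a and alone above all others for Ryr1 and Ryr2.

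Of the genes lower at E0.5, TRPC6, a cation channel opened by diacylglycerol, was the 1 that passed the adjustment with all libraries. Trpc6 (chr9:8544142-8680741) measured 0.676, 0.595 and 0.481 FPKM at E0.5 and 2.48, 1.81 and 2.99 at E4.5. The groups did not overlap, and E4.5 replicate 3 was the highest. Its log2 fold change of -2.04 ± 0.27 had an adjusted p of 0.0285 by edgeR's quasi-likelihood test, and the value was -1.90 without E4.5 replicate 3. Over the 6 fits that left out a library it ran from -2.22 to -1.90, and 2 of these kept an adjusted p below 0.05 by edgeR.

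The other TRPC genes did not meet the criterion. Trpc1 stayed between 1.02 and 1.35 FPKM in all 6 libraries and Trpc4 between 0.602 and 1.87. The TRPC sum was 9.61 ± 1.01 FPKM at E0.5 and 9.88 ± 1.54 at E4.5 (SD, n = 3).

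Trpm4, a calcium-activated monovalent cation channel (chr7:45302632-45333769), measured 7.79, 7.16 and 6.59 FPKM at E0.5 and 2.55, 3.10 and 4.58 at E4.5. The groups did not overlap, and the log2 fold change was 1.09 ± 0.22 (edgeR adjusted p = 0.0738). It was 1.33 without E4.5 replicate 3 (edgeR adjusted p = 0.00644), and the call was lost without E4.5 replicate 1 (0.94). The channel kinases Trpm7, at 8.29 to 8.52 FPKM at E0.5 and 8.35 to 9.80 at E4.5, and Trpm6, with a log2 fold change of -0.49 ± 0.29, did not meet it.

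Trpv6, the apical calcium entry channel of epithelia, was the most abundant channel gene of the TRPV family, at 30.1, 38.7 and 57.3 FPKM at E0.5 and 28.5, 24.9 and 2.88 at E4.5. Every E0.5 value lay above every E4.5 value, yet the criterion was not met (log2 fold change 1.15 ± 0.76, edgeR adjusted p = 0.478), and the value was 0.64 without E4.5 replicate 3. Trpv2, with a log2 fold change of 0.70 ± 0.33, and the osmosensitive Trpv4, with 0.78 ± 0.55, did not meet it. Without E4.5 replicate 3 the value of Trpv4 was 0.33.

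None of the 3 IP3 receptor genes met the criterion in edgeR with all libraries. They summed to 23.3 ± 0.627 FPKM at E0.5 and 24.1 ± 2.07 at E4.5. Itpr3 measured 14.1, 11.4 and 14.6 FPKM at E0.5 and 8.07, 8.12 and 5.84 at E4.5 (log2 fold change 0.87 ± 0.21, edgeR adjusted p = 0.107). Itpr2 (chr6:146108172-146502223) measured 4.52, 5.47 and 4.40 at E0.5 and 9.51, 11.0 and 8.45 at E4.5 (log2 fold change -0.9962 ± 0.19, edgeR adjusted p = 0.0630). Neither pair of groups overlapped, and the value of Itpr2 came just short of the fold required. Without E4.5 replicate 3, Itpr2 gave -1.11 with an edgeR adjusted p of 0.0116.

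Itpr3 made up 50.4 to 61.2% of the IP3 receptor sum at E0.5 and 22.3 to 36.5% at E4.5. Itpr1 measured 4.74, 5.78 and 4.88 FPKM at E0.5 and 4.53, 4.95 and 11.96 at E4.5, so that only E4.5 replicate 3 differed. Its log2 fold change of -0.45 ± 0.37 became 0.10 without that library.

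Of the ryanodine receptors, Ryr3 ranged from 3.10 to 4.68 FPKM at E0.5 and measured 3.995, 3.30 and 0.605 at E4.5. Ryr2, the main form of heart muscle, measured 0.236, 0.173 and 0.148 at E0.5 and 0.328, 0.309 and 1.72 at E4.5. It met the criterion (log2 fold change -2.04 ± 0.69, edgeR adjusted p = 0.208), but gave -0.80 without E4.5 replicate 3 and lost the call without E0.5 replicate 2 (-2.01) or E0.5 replicate 3 (-1.92). Ryr1, the form of skeletal muscle, named after its values were seen, had 72, 30 and 24 counts at E0.5 and 48, 47 and 1378 at E4.5. Its log2 fold change of -3.52 ± 1.42 (edgeR adjusted p = 0.277) became -0.19 without E4.5 replicate 3, and its call was also lost without any 1 of the E0.5 libraries (-3.25 to -4.09). Of the 7 skeletal muscle markers, Myh1, Myh2 and Myh4 were at 0 throughout. The summed level was 17.1 to 31.6 FPKM at E0.5 and 30.3, 16.2 and 2.10 in E4.5 replicates 1 to 3, so it was lowest where Ryr1 was highest.

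Anoctamins differed in both directions. Ano1 (chr7:144588549-144751974), a calcium-activated chloride channel of smooth muscle and pacemaker cells, measured 4.23, 2.91 and 3.501 FPKM at E0.5 and 8.997, 9.11 and 4.82 at E4.5. The groups did not overlap, and the log2 fold change was -1.11 ± 0.30 (edgeR adjusted p = 0.137). It was -1.37 without E4.5 replicate 3 (edgeR adjusted p = 0.00872), and the call was lost without E0.5 replicate 2 (-0.99), E4.5 replicate 1 (-0.93) or E4.5 replicate 2 (-0.99). Ano1 made up 15.6 to 21.7% of the anoctamin sum at E0.5, 43.2 and 43.3% in E4.5 replicates 1 and 2, and 18.8% in E4.5 replicate 3.

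Ano9 went the other way, at 1.78, 1.96 and 1.96 FPKM against 0.777, 1.18 and 0.370, with a log2 fold change of 1.29 ± 0.42 (edgeR adjusted p = 0.194) that was 0.95 without E4.5 replicate 3. Ano8 and Ano10 stayed between 1.95 and 3.93 FPKM and between 4.39 and 5.79 FPKM. Ano6, a calcium-dependent lipid scramblase, ranged from 3.64 to 4.59 FPKM at E0.5 and from 3.49 to 4.80 at E4.5. Ano4, named after its values were seen, turned in direction. It measured 0.791, 1.09 and 0.958 FPKM at E0.5 and 0.0804, 0.152 and 5.26 at E4.5, so its log2 fold change was -0.89 ± 1.37 with all libraries and 3.01 without E4.5 replicate 3 (edgeR adjusted p = 0.00471).

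Of the pumps, Atp2a3 (SERCA3), known from epithelial and blood cells, measured 10.4, 12.6 and 9.37 FPKM at E0.5 and 6.01, 5.82 and 3.72 at E4.5. The groups did not overlap (log2 fold change 1.06 ± 0.26, edgeR adjusted p = 0.107). The value fell below the required fold without E4.5 replicate 3 (0.85) or E0.5 replicate 2 (0.93). Atp2a2, the SERCA form of muscle, measured 25.8, 29.8 and 28.0 FPKM at E0.5 and 22.9, 23.9 and 26.0 at E4.5, with a log2 fold change of 0.21 ± 0.15.

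The plasma membrane pumps did not meet the criterion. Atp2b1 averaged 8.36 ± 0.961 FPKM at E0.5 and 7.68 ± 2.002 at E4.5 (SD, n = 3), and Atp2b4 measured 11.8, 10.3 and 3.76 at E4.5 against 10.8 ± 0.497 at E0.5. None of the 5 Orai and Stim genes met it. Orai1, a pore of store-operated entry, had a log2 fold change of 0.46 ± 0.20, Stim2 of 0.48 ± 0.31, and Stim1, the store sensor, averaged 4.56 ± 0.772 FPKM at E0.5 and 4.67 ± 1.19 at E4.5. Orai3 stayed between 11.02 and 15.47 FPKM in all 6 libraries.

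Partners of these channels were read from 2 further lists. Of 50 calcium-handling genes (calmodulins, phospholipases C, exchangers, store proteins, calbindins and organelle channels) 46 were tested, of which 2 were higher and 3 lower at E0.5, with a median log2 fold change of -0.03. This share was near the background of 12.2% for all rows. Without E4.5 replicate 3 the counts were 3 higher and 6 lower (background 14.1% in either direction) and the median was -0.10, and Calb1, calbindin-D28k, went from 0.78 to 2.89 (edgeR adjusted p = 0.0127 without it). The endolysosomal channel Tpcn1 measured 6.76, 6.57 and 5.99 FPKM at E0.5 and 2.58, 3.02 and 3.47 at E4.5 (log2 fold change 1.11 ± 0.16, edgeR adjusted p = 0.0339). S100g, calbindin-D9k, measured 21.2, 28.7 and 52.4 FPKM at E0.5 and 865, 915 and 107 at E4.5 (log2 fold change -4.21 ± 0.86, edgeR adjusted p = 0.0743), and -4.71 without E4.5 replicate 3 (edgeR adjusted p = 0.00204). The other 3 past the criterion were Camk2a (2.12), Jph1 (-1.13) and Calb2, which was listed at 0 in all E0.5 libraries and at 0.275, 0.587 and 0.0532 FPKM at E4.5. Without E4.5 replicate 3, Camk2a gave 2.96 (edgeR adjusted p = 0.0199) and Jph1 -1.40 (edgeR adjusted p = 0.0381). These 6 genes were named after their values were seen.

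Of 10 genes for the sodium leak channel and the sodium pump, all tested, 0 were higher and 3 were lower at E0.5 by edgeR's test (background 5.82%), and 2 were lower without E4.5 replicate 3. Nalcn, the leak pore, measured 0.0138, 0.0556 and 0.0331 FPKM at E0.5 and 0.571, 0.602 and 0.265 at E4.5 (log2 fold change -3.77 ± 0.62, edgeR adjusted p = 0.0486). Its partner Unc80 measured 0.00693, 0.00946 and 0.0297 against 0.323, 0.629 and 0.0878 (log2 fold change -4.42 ± 0.91, edgeR adjusted p = 0.0758), and -4.88 without E4.5 replicate 3 (edgeR adjusted p = 0.00919). Both were named after their values were seen.

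The second comparison asked which genes differed between E18.5 and E15.5. By limma with trend on log2(FPKM + 0.1), where changes of low genes come out too small, 4 of 60 channel rows met the criterion (6.67%), against 6.05% of all 30928 rows tested, so the share was near the background. Scn9a, Atp2b2 and Trpv4 were higher at E18.5 (background 3.11%) and Scn3b was lower (background 2.93%). In all 4 the groups did not overlap, and 1, Scn9a, had an adjusted p below 0.05 by limma (background 0.0259%). Among the 23763 tested rows with an Ensembl transcript 5.19% met the criterion (2.52% higher, 2.67% lower) and 0.0252% passed the adjustment.

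The channel rows leaned to higher values at E18.5. The median log2 fold change was 0.12, beside 0.02 for all rows, and 66.7% were positive against 52.3% of all rows. The E18.5 libraries lay above all E15.5 libraries for 13 rows (21.7%, background 10.9%) and below them for 2 (3.33%, background 8.96%), with 10.9% and 8.92% among rows with an Ensembl transcript. E15.5 replicate 1 was the library least like the others, with Spearman correlations of 0.832 to 0.902 over 14254 rows, and without it 63.3% of channel rows were positive against 53.6% of all rows, with medians of 0.09 and 0.03. In that fit 3 channel rows met the criterion, against 5.01% of all rows and 4.38% of those with an Ensembl transcript.

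Markers of epithelium and trophoblast moved with the day. The 6 epithelium markers summed to 607 to 833 FPKM at E18.5 and 197 to 418 at E15.5. Of these 4 met the criterion, higher at E18.5 (background 3.11%), and 3 did without E15.5 replicate 1. Of 6 tested trophoblast markers 3 met it, higher at E18.5, and 4 did without E15.5 replicate 1. With all libraries, no marker of these 2 lists had an adjusted p below 0.05 by limma. The trophoblast list summed to 44.7 to 76.6 FPKM at E18.5 and to 34.7, 4.95 and 4.14 in E15.5 replicates 1 to 3. The 6 yolk sac markers summed to 195 to 624 FPKM at E18.5 and 11.0 to 876 at E15.5, and the 8 smooth muscle markers to 3560 to 4482 and 2935 to 3972. Both sums overlapped between the days. Of the yolk sac markers 1 met the criterion, lower at E18.5, and of the smooth muscle markers 0 did. The part of these cell types in the results that follow was not tested.

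Scn9a (NaV1.7, a pore known from sensory neurons, chr2:66480080-66634952 in the implantation table) measured 1.04, 1.02 and 0.866 FPKM at E18.5. At E15.5 it was listed at 0 in replicates 1 and 2 and measured 0.0173 in replicate 3. At implantation it was not tested, at a mean of 0.0028 FPKM at E0.5 and 0.0159 at E4.5. All E18.5 libraries lay far above the E15.5 libraries, with a difference of 3.35 ± 0.29 on the log2(FPKM + 0.1) scale and an adjusted p of 0.0397 by limma. It ranged from 3.30 to 3.42 over the fits that left out 1 library, and limma's adjusted p in these from 0.0519 to 0.231. Scn9a was named after its values were seen, since its mean lay just under the 0.5 FPKM set for naming. The 2 Schwann cell and neuron markers tested did not meet the criterion, and that list summed to 0.391 to 0.512 FPKM at E18.5 and 0.447 to 0.581 at E15.5.

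Its neighbours on the same strand behaved otherwise. Scn7a, which starts 38472 bases beyond Scn9a, measured 4.97, 8.88 and 8.93 FPKM at E18.5 and 12.2, 8.01 and 6.57 at E15.5, and the groups overlapped. Scn1a, 39265 bases before it, was below the filter, at 0.0179 and 0.0325 FPKM on average.

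Scn3b, which codes a beta subunit, measured 0.255, 0.138 and 0.493 FPKM at E18.5 and 1.69, 1.01 and 0.708 at E15.5 (log2 fold change -1.67 ± 0.44, limma adjusted p = 0.221). At implantation its log2 fold change was -0.55 ± 0.27 and did not meet the criterion. Scn2b, at 0.974 ± 0.287 and 0.983 ± 0.0657 FPKM, and Scn4b, at means of 0.0494 and 0.0420 FPKM and not tested, differed by less than the spread between libraries.

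Atp2b2 (PMCA2, known from hair cells, neurons and lactating mammary gland, chr6:113741286-114042026) measured 2.58, 1.76 and 1.30 FPKM at E18.5 and 0.0751, 0.323 and 0.731 at E15.5. The log2 fold change was 2.28 ± 0.57 (limma adjusted p = 0.202), and 1.69 without E15.5 replicate 1, its lowest library. At implantation Atp2b2 averaged 2.20 ± 0.652 FPKM at E0.5 and 1.47 ± 0.576 at E4.5. The major plasma membrane pumps did not differ in this way, with Atp2b1 at 8.43 ± 0.412 and 8.81 ± 1.39 FPKM and Atp2b4 at 23.0 ± 5.52 and 19.6 ± 2.87 (SD, n = 3).

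Trpv4 (chr5:114622152-114658421) measured 6.58, 3.87 and 4.87 FPKM at E18.5 and 0.746, 2.26 and 3.06 at E15.5. Its log2 fold change of 1.46 ± 0.49 (limma adjusted p = 0.307) met the criterion, and the call was lost without E15.5 replicate 1 (0.90) or E18.5 replicate 1 (1.27). Trpv6, at 9.59, 5.70 and 7.45 FPKM against 11.0, 6.26 and 4.79, and Trpv2, at 4.84 ± 1.503 and 4.90 ± 0.648, overlapped between the days.

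**Figure D4:**
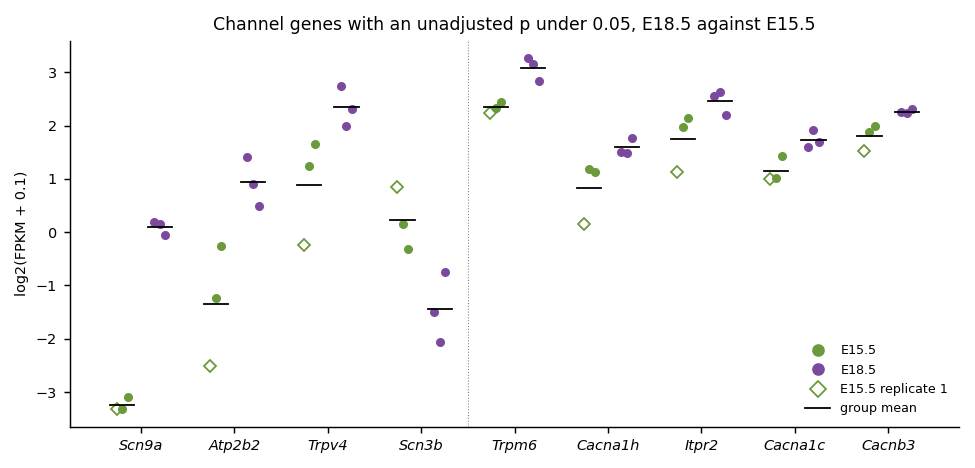
Expression as log2(FPKM + 0.1) in every labor library for the 9 channel genes with an unadjusted p under 0.05 by limma. The 4 left of the dotted line also met the fold required. Lines are group means, and the open diamond is E15.5 replicate 1, which was the lowest E15.5 library for 7 of the 9 genes, the exceptions being Scn9a, at 0 in it and in replicate 2, and Scn3b.

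Below the fold required, 5 further genes had an unadjusted p under 0.05, all higher at E18.5 without overlap. Trpm6, a magnesium and calcium channel kinase of epithelia, measured 9.51, 8.78 and 7.08 FPKM against 4.62, 4.94 and 5.37 (log2 fold change 0.75 ± 0.15, limma adjusted p = 0.153). Cacna1c measured 2.91, 3.68 and 3.15 against 1.89, 1.91 and 2.61 (0.59 ± 0.19, limma adjusted p = 0.285), Cacnb3 4.65, 4.60 and 4.85 against 2.77, 3.603 and 3.91 (0.46 ± 0.16, limma adjusted p = 0.331), and Cacna1h 2.75, 2.72 and 3.30 against 1.02, 2.17 and 2.10 (0.76 ± 0.30, limma adjusted p = 0.376). The fifth was Itpr2, at 5.76, 6.06 and 4.47 FPKM against 2.09, 3.85 and 4.30 (0.70 ± 0.28, limma adjusted p = 0.394). None of the 5 passed the adjustment, and Cacna1h and Itpr2 were 0.43 and 0.39 without E15.5 replicate 1, the lowest E15.5 library for all 5.

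The remaining calcium channel pores and subunits stayed short of the criterion. Cacna1g had a log2 fold change of 0.74 ± 0.33, and 0.36 without E15.5 replicate 1, Cacng7 of 0.44 ± 0.21, Cacna2d1 of 0.13 ± 0.13 and Cacnb2 of -0.32 ± 0.19 (-0.20 without that library), and Cacna1d averaged 0.633 ± 0.115 and 0.594 ± 0.0899 FPKM. The CaV alpha1 sum was 9.55 to 11.5 FPKM at E18.5 and 5.08 to 8.53 at E15.5.

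Apart from Itpr2, the groups overlapped for the IP3 and ryanodine receptor genes, and also for Trpc1, Trpc4 and Trpc6. Itpr1 averaged 7.42 ± 0.533 FPKM at E18.5 and 7.38 ± 0.557 at E15.5. Itpr3 measured 7.95, 6.85 and 8.57 against 6.15, 13.3 and 11.3 (log2 fold change -0.32 ± 0.28), and gave -0.65 without E15.5 replicate 1, its lowest library (limma adjusted p = 0.242). Ryr3 had a value of 0.32 ± 0.22, and 0.12 without that library, and Ryr2 lay between 0.114 and 0.167 FPKM in all 6 libraries. The averages at E18.5 and E15.5 were 2.73 ± 0.627 and 2.63 ± 0.527 FPKM for Trpc4, 1.22 ± 0.189 and 1.33 ± 0.434 for Trpc6, and 1.04 ± 0.0510 and 1.06 ± 0.222 for Trpc1 (SD, n = 3).

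Ano1, at 6.05, 8.27 and 7.58 FPKM against 6.93, 8.28 and 7.88, did not differ beyond the spread between libraries, and Ano6 had a log2 fold change of 0.20 ± 0.13 (0.13 without E15.5 replicate 1). Atp2a2 measured 37.6, 39.99 and 36.7 FPKM at E18.5 and 23.5, 32.5 and 33.8 at E15.5, without overlap but short of the criterion (0.36 ± 0.17, limma adjusted p = 0.439), and the value was 0.20 without E15.5 replicate 1. Atp2a3 averaged 1.44 ± 0.144 and 1.31 ± 0.728 FPKM, and Trpm4 1.42 ± 0.0666 and 1.35 ± 0.259. Trpm7 was lower at E18.5 in every library, at a log2 fold change of -0.30 ± 0.13 that missed the criterion. Stim2 had a value of 0.39 ± 0.26, and 0.10 without E15.5 replicate 1, while Stim1, Orai1 and Orai3 differed by less than 1 SE. Their averages at E18.5 and E15.5 were 4.55 ± 1.40 and 4.55 ± 0.445 FPKM for Stim1, 2.81 ± 0.853 and 2.31 ± 0.988 for Orai1, and 8.14 ± 0.767 and 8.54 ± 1.79 for Orai3. Trpm3, named after its values were seen, varied within both days, at 4.47, 3.04 and 1.45 FPKM at E18.5 and 0.369, 1.54 and 3.22 at E15.5.

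The partner lists moved little at this stage. Of 47 tested calcium-handling genes 1 was higher (background 3.11%) and 0 lower by limma, with a median log2 fold change of 0.08, and -0.0026 without E15.5 replicate 1. That gene, S100g, measured 383, 235 and 212 FPKM at E18.5 and 165, 117 and 120 at E15.5 (log2 fold change 1.01 ± 0.28, limma adjusted p = 0.2299). None of 8 tested genes for the sodium leak and pump met the criterion.

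The third comparison set the 2 stages against each other, as the log2 fold change of E0.5 over E4.5 less that of E18.5 over E15.5, in limma over the 12 libraries. Rows were paired by shared Ensembl transcripts, which gave 56 channel pairs among 22056. An adjusted p below 0.05 by limma was reached by 2 channel pairs, Itpr2 and Trpc6, beside 2.64% of all pairs. No channel gene met the criterion in both stages, but only 4 met it at labor, and Scn9a among these was not tested at implantation. The share of all rows past it in both stages is not given here, so nothing is concluded from this.

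For Itpr2 the limma log2 fold change was -0.99 at implantation and 0.70 at labor, a difference of -1.69 ± 0.35 (limma adjusted p = 0.0304). For Trpc6 it was -1.87 and -0.08, a difference of -1.79 ± 0.37 (limma adjusted p = 0.0307). Leaving out 1 of the 12 libraries gave limma adjusted p-values of 0.0207 to 0.0854 for Itpr2 and 0.0171 to 0.0843 for Trpc6, below 0.05 in 4 of 12 fits for each. Without E4.5 replicate 3 the number of channel pairs below 0.05 by limma was 8 of 56, beside 5.76% of all pairs.

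Other differences missed the threshold with all 12 libraries. Cacnb2 gave 2.07 ± 0.52 (limma adjusted p = 0.0598), Trpm6 -1.23 ± 0.32 (limma adjusted p = 0.0667) and Trpm4 1.01 ± 0.31 (limma adjusted p = 0.110). Trpm6 gave -1.41 (limma adjusted p = 0.0245) and Trpm4 1.24 (limma adjusted p = 0.0203) without E4.5 replicate 3. These 3 were named after their values were seen, as the next in order of p.

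**Figure D5:**
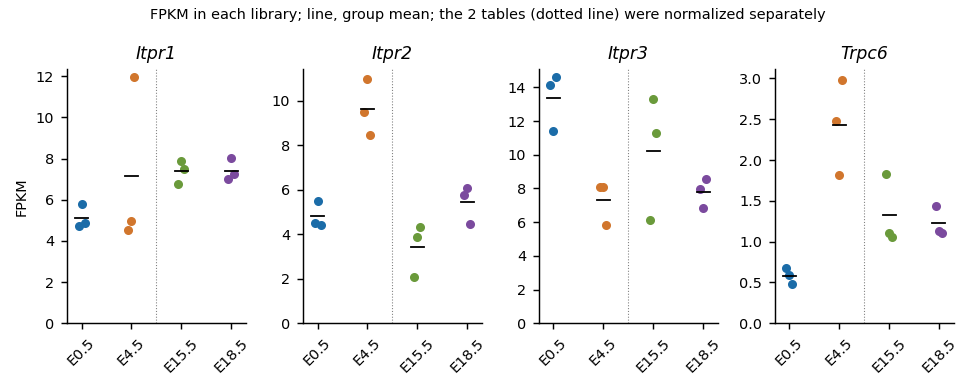
FPKM (y axis, linear, from 0) of the IP3 receptor genes and Trpc6 in each library on the 4 days, with lines at group means and a dotted line between the separately normalized tables. Itpr2 is 4.40 to 5.47 FPKM at E0.5 and 8.45 to 11.0 at E4.5, and Trpc6 is 0.481 to 0.676 and 1.81 to 2.99.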

How the data were processed

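RNA-seq reads of 12 whole uteri, 3 ICR mice on each of 4 days, had been processed by the authors. Per the labels and the paper, reads were trimmed with Cutadapt, mapped to the mouse genome, assembled with StringTie and quantified as FPKM through Ballgown, and replicates were not pooled. The submitters' processing notes name HISAT2 2.0, Bowtie 0.12.2, StringTie 1.3.0, mm10 and mm8. The implantation table deposited by the authors holds raw counts and FPKM per assembled gene, and the labor table deposited holds FPKM only. The labels name poly(A) selection and the paper ribosomal RNA depletion, so the library type is uncertain. Whether counting used strand is not given in the sources used here, so reads of overlapping and antisense genes could not be separated.

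Positions are those of the implantation table. All 92 channel rows overlapped the RefSeq gene of the same name on GRCm38. FPKM of 0.0001, a placeholder at 168941 entries that all had a count of 0, was set to 0. Rows without a gene name took 1.02 to 1.86% of counts and stayed in library sizes and tests, since they are assembled genes with positions. In the labor table the commonest ratio of low FPKM values between libraries placed the other 5 libraries at 1.27 to 1.63 times the depth of E18.5 replicate 1, a rough estimate, and absolute depth is unknown.

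The filter for testing was an average of 0.1 FPKM or more. Counts were fitted with edgeR 4.0.16 (TMM, quasi-likelihood F-test) and FPKM with limma 3.58.1 (trend, log2(FPKM + 0.1)) in R 4.3.3. The SE of an edgeR log2 fold change is its size divided by the square root of F. All tests were two-sided, with Benjamini-Hochberg adjustment over all rows tested. With 3 libraries a group, an exact permutation test cannot give a p below 0.1, so none was used. The scripts were tested on simulated data. The p-values measure the spread between these mice.

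Members, families and lists were chosen with earlier results of these data known. Genes named were a fixed set of 32, the most abundant of each family, and members of at least 0.5 FPKM past the criterion without overlap, at most 20 a comparison. Every other gene given was chosen after its values were seen, whether or not the text says so beside it. Where a named gene's difference was under 1 SE, only levels are given (10 genes at implantation, 18 at labor). Alternatives were DESeq2 1.42.0, other scalings, filters and pseudocounts, a fit blocked on replicate number, and fits that omit a single library. Some results are not reported here.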

Additional observations from a re-analysis of the deposited data

Results flagged for a closer look

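For 2 of 56 channel pairs the change between days differed between the stages by the test of the difference itself. This share was near the 2.64% of all pairs, so the count does not set the channel genes apart. In limma over the 12 libraries, the log2 fold change of E0.5 over E4.5 less that of E18.5 over E15.5 was -1.695 for Itpr2 (adjusted p = 0.0304) and -1.788 for Trpc6 (adjusted p = 0.0307), each with 3 libraries a day. When 1 of the 12 libraries was left out, the adjusted p stayed below 0.05 by limma in 4 of 12 fits for each gene. Itpr2 was lower at E0.5 than at E4.5 in every library and higher at E18.5 than at E15.5 in every library. Trpc6 was lower at E0.5 in every library, while its E15.5 and E18.5 values overlapped.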

How the results depend on the processing

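The number of channel rows past the criterion at implantation, 16 of 65, was 9 in limma on log2(FPKM + 0.1) and 2 when an adjusted p below 0.05 by edgeR was asked for. The 10 lower at E0.5 became 3 and 1 under these, and 5 with a mean of at least 1 FPKM, and the 6 higher became 1 with an adjusted p. Leaving out 1 library gave 8 to 17 in all, 4 to 7 higher and 4 to 10 lower, the fewest without E0.5 replicate 2. The 4 at labor became 2 with a pseudocount of 1 or a mean of at least 1 FPKM and 1 with an adjusted p, the 3 higher became 1 with an adjusted p, and the 1 lower became 0 under each of these 3. Leaving out 1 library gave 3 to 5 at labor and 0 to 8 pairs that differed between the stages. Over the fits that left out 1 library at implantation, Cacna1h ran from -0.5915 to 0.0156 and Itpr1 from -0.6781 to 0.1005, positive without E4.5 replicate 3. Ano4 turned in the same way, as given above. Among the other genes past the criterion, or named by rule with a difference of 1 SE or more, none turned direction under an alternative that was run, though 12 genes lost the call under some alternative at implantation and 3 at labor, and 3 gained it at implantation. DESeq2 gave 15 channel rows past the criterion at implantation, 6 higher and 9 lower. Same-numbered libraries did not deviate together (correlations of -0.0664 to 0.018). With 3 libraries a day, these correlations cannot exclude that the numbers pair the mice. A replicate block gave 12 channel rows at implantation, 5 of them lower, 4 at labor, and 0 pairs that differed between the stages. Depth at labor is unknown, which limits what can be said of genes listed at 0 there. In these alternatives the cause of each change was not tested.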

Other observations

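Rows that carry a channel name but no Ensembl transcript were left out of the members. The implantation table held 202 of them, of 34 genes, and of 200 tested 7 were higher and 19 lower at E0.5 by the same criterion in edgeR. In all, this share was near the 12.2% of all rows tested, with 6.37% higher and 5.82% lower among those. Itpr2 had 9 such rows, of which 8 met the criterion, lower at E0.5 (median log2 fold change -1.06), and Ano1 had 4, of which 3 were lower (median -1.08). Cacnb2 had 5, of which 0 were higher and 1 was lower (median 0.87, beside 1.62 for the member). Trpc6 had 2, of which 0 met the criterion (median -0.88, beside -2.04 for the member). Cacna1c had 16 such rows, of which 14 were tested and 3 were higher (median 1.07), with summed levels of 160 to 197 FPKM at E0.5 and 28.2 to 115 at E4.5. Ryr3 had 39 such rows, none of which met the criterion in edgeR. Inside the member row lay 7 of the 9 Itpr2 rows, 4 of 4 for Ano1, 15 of 16 for Cacna1c and 39 of 39 for Ryr3.

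The labor table held 54 such rows, of 12 genes, of which 7 were higher and 1 lower at E18.5 by limma, beside 3.11 and 2.93% of all rows tested. Most of the higher rows belonged to 1 gene, Cacna2d3. The single Atp2b2 row had a log2 fold change of 2.52, beside 2.28 for the member. Cacna2d3, named after its values were seen, had 6 such rows, of which 5 were higher at E18.5 (median 1.88), beside 0.57 for the member.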
